A study of Mus musculus with 35 samples.

Results

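The regions described here were stretches of mouse chromatin that carried the active histone mark H3K27ac in fibroblasts and still carried it on day 3 of reprogramming to pluripotency, but no longer on day 9 or in embryonic stem cells. They were chosen from the peak lists themselves. All H3K27ac peaks of 12 libraries on chromosomes 1 to 19 and X were merged wherever they shared at least 1 bp, which gave 179334 merged regions. A merged region was a member if it held a peak in both fibroblast libraries and in all 3 day 3 libraries, and none in the 2 day 9 and 2 embryonic stem cell libraries. This left 1767 members, 0.985% of all merged regions, covering 4.53 Mb.

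The series profiled H3K27ac and the transcription factor KLF4 by ChIP-seq, in which antibody-bound chromatin fragments are sequenced and peaks of enrichment are called, along the conversion of mouse embryonic fibroblasts (MEF) into induced pluripotent cells. It holds 35 samples, of which 22 peak lists were used and 13 input samples were not used here. The fibroblasts had the genotype OKSM Col1a1/M2rtTA ROSA26 on strain C57BL/6 x 129: a cassette of the reprogramming factors Oct4, Klf4, Sox2 and Myc sits at Col1a1 and the doxycycline-dependent activator that switches it on sits at Rosa26. H3K27ac was measured in MEF (2 libraries), day 3 (3), day 6 (3), day 9 (2) and embryonic stem cells (ESC, 2), and KLF4 in 2 libraries for each of 5 stages: days 3, 6 and 9, ESC, and ESC with 2i. MEF were grown in MEF medium without doxycycline. Cells of days 3, 6 and 9 were in ESC medium to which doxycycline (1 µg/ml) and ascorbic acid (50 µg/ml) had been added, so the KLF4 antibody could bind both the factor made from the cassette and the cell's own. MEF and day 3 cells were unsorted, whereas day 6 and day 9 cells were sorted for the surface marker SSEA1, so the loss after day 3 and the sort cannot be told apart. The ESC were the established line V6.5, of the same strain label, grown unsorted on irradiated feeder cells in serum with LIF. The 2i cells also received 1 µM of a MEK inhibitor and 3 µM of a GSK3 inhibitor.

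H3K27ac is acetylation of lysine 27 of histone H3, written by the acetyltransferases CBP and p300, and it marks active promoters and enhancers, the distal elements that raise transcription of a gene. During reprogramming the enhancers of the fibroblast program are shut down and those of the pluripotency program are opened. KLF4 is a zinc finger factor that binds GC-rich elements, and it is one of the factors that drive the process.

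The series text calls the replicates biological but names no separate cultures or animals, so p-values measure the spread between these libraries. The peak lists gave no read counts, so depth is unknown, and the lack of a called peak does not mean a lack of signal. In bulk chromatin, fewer cells carrying a mark and less of the mark per cell cannot be told apart. The H3K27ac lists held 88070 and 88347 peaks in MEF, 41471 to 50836 on day 3, 17493 to 22462 on day 6, 43974 and 45506 on day 9, and 81971 and 81231 in ESC. The day 6 lists were thus the shortest. MEF and ESC H3K27ac libraries came only from batch DG-3458 and day 9 only from EA-3702, while day 3 and day 6 were in both. The labelled stages were checked by counting marker genes with an H3K27ac peak within 2.5 kb of the gene. Of 9 fibroblast genes, 9 had one in MEF, 7 or 8 on day 3, 3 on day 6, 3 or 4 on day 9 and 5 in ESC, and of 6 pluripotency genes, 3, 2 or 3, 1 or 2, 6 and 6 had one in the same order. Genes of other cell types also carried peaks in MEF, among them 4 of 5 macrophage and 5 of 5 endothelial genes, against 3 of 5 and 1 to 3 of 5 on day 3. In ESC, 3 of 5 of each had one. Skeletal muscle genes went from 3 and 2 of 5 in MEF to 0 or 1 on day 3, and adipocyte genes from 3 of 4 to 1 to 3. Epithelial genes went the other way, from 2 of 5 in MEF to 3 or 4 on day 3 and 5 on day 9 and in ESC. The part of other cell types in the members was not tested.

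Of 59951 merged regions with a peak in both MEF libraries, 15257 (25.4%) kept one in all 3 day 3 libraries. Of these 15257, 10651 (69.8%) had peaks in every MEF, day 3, day 9 and ESC library and are called all-stage regions. Another 1292 (8.47%) kept H3K27ac in both day 9 libraries but had none in ESC, and are called held regions. The 1767 members were 11.6% of the 15257. A further class, the early-lost regions, had peaks in both MEF libraries and none on day 3, day 9 or in ESC, and numbered 31707. Among the regions with peaks in all 5 MEF and day 3 libraries, the share that were members ran from 6.11% on chromosome X to 16.3% on chromosome 6.

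Because H3K27ac in MEF, day 3, day 9 and ESC chose the members, its values there are given as a description. The members were broad, with a median width of 2154 bp (10th to 90th percentile 955 to 4717 bp, range 392 to 12321 bp), near the held regions at 2650 bp and wider than the early-lost regions at 719 bp. In MEF, peaks covered 85.9% and 86.2% of the members' base pairs. On day 3 they covered 43.8% in the library of batch EA-3702 and 36.7% and 30.0% in the libraries of batch DG-3458, so the acetylated stretch inside the members was already shorter in all 3 day 3 libraries than in either MEF library. Coverage was also lower on day 3 in the classes that still had the mark on day 9. In held regions it was 70.1% and 70.2% in MEF and 61.0%, 51.5% and 43.7% on day 3, and in all-stage regions 70.6% and 71.1%, then 54.4%, 45.3% and 40.1%.

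**Figure D1:**
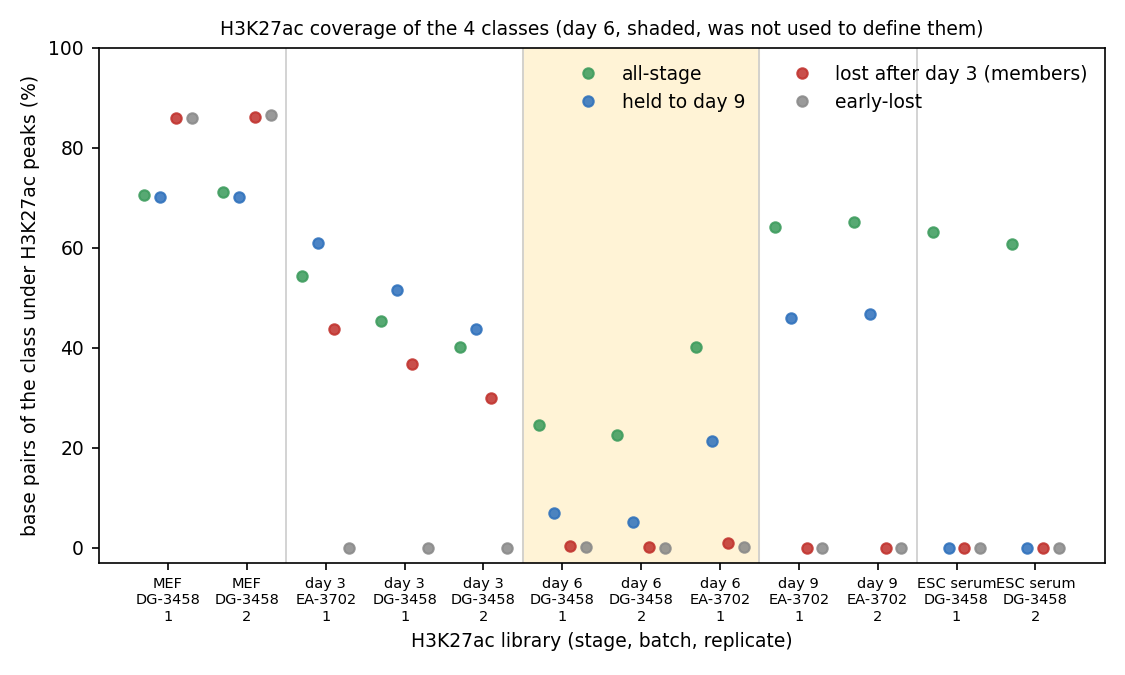
Percent of the base pairs of each region class (vertical axis) under an H3K27ac peak in each of the 12 libraries (horizontal axis, by stage), with day 6, which did not enter the choice of members, shaded. Member coverage was 85.9% and 86.2% in MEF, 30.0% to 43.8% on day 3 and 0.0838% to 0.847% on day 6.

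The strength of a peak is given as the authors' own fold enrichment, of the best peak in the region, and serves only to describe and rank peaks within a list. The members' median fold in MEF was 10.2 and 9.94, against 9.44 and 9.20 in held regions and 4.89 and 4.85 in early-lost regions. On day 3 the members' median fold was 3.56 in EA-3702 and 3.99 and 4.21 in DG-3458, and that of held regions was 4.94, 4.82 and 5.10. Members had a slightly higher median than held regions in both MEF libraries and the lower median in all 3 libraries of day 3. All-stage regions, most of which cover promoters, stood above both at a median of 19.1 in MEF.

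Many regions lay near the threshold of the rule, inside and outside it. The weakest of the 5 defining peaks of a member had a −log10 p of 2.00 to 31.5 with a median of 4.34, and it was under 3 in 341 members (19.3%). Just outside, 1601 regions missed 1 of the 5 MEF and day 3 peaks, most often (803) the one in day 3 DG-3458 replicate 2, and 510 regions had exactly 1 peak among the 4 day 9 and ESC libraries, with a −log10 p of 2.03 to 16.1 and a median of 3.70. When members were chosen without 1 library, 95.9% and 95.8% had a peak in the left-out MEF library, 68.8% to 84.7% in the left-out day 3 library, 7.82% and 11.2% in the left-out day 9 library and 3.97% and 3.50% in the left-out ESC library. The corresponding shares of all merged regions were 41.6% and 41.9%, 14.4% to 19.9%, 21.2% and 21.6%, and 36.3% and 34.6%. The pattern of the members thus recurred in left-out libraries of the same stages, whose peaks had still helped to draw the merged regions. Each left-out MEF, day 9 or ESC library shared its batch with the library of its stage that stayed in.

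Members lay about as far from genes as merged regions in general. Of the 1767, 1021 (57.8%) overlapped a protein-coding gene, 120 (6.79%) lay over a promoter, and 72.8% were more than 10 kb from any transcription start site, with a median distance of 26.4 kb. Over all merged regions these values were 56.2%, 7.59%, 68.7% and 23.1 kb. Held regions were closer to genes (69.2% in a gene, 14.9% over a promoter, median 21.0 kb) and early-lost regions farther (49.0%, 2.18% and 33.4 kb), while 67.5% of all-stage regions lay over a promoter. Of the members, 385 (21.8%) had another member within 10 kb. A neighbour of its own class was that near for 11.7% of the 1292 held and 66.1% of the 31707 early-lost regions, shares that also move with the number of regions in a class. The largest groups held 4 members each, across 30.7 kb in Dnm3, which encodes a dynamin GTPase of membrane traffic, and across 11.8 kb in Camk2d, a calcium/calmodulin-dependent kinase. Groups of 3 included one in Fgf7, a fibroblast-made growth factor for epithelia, and others 18898 bp from Prelp, 3874 bp from Dut and 164317 bp from Tgfb2.

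Many members had a region acetylated later nearby, whether or not it was acetylated in MEF. A different region acetylated in both day 9 libraries lay within 10 kb of 680 members (38.5%) and within 50 kb of 1360 (77.0%), against 48.4% and 86.2% for held regions and 25.4% and 62.5% for early-lost regions. For regions acetylated in both ESC libraries, members and held regions were nearly equal, at 29.5% and 29.6% within 10 kb and 70.6% and 71.6% within 50 kb. Early-lost regions had 24.9% and 61.8%. The share over all merged regions was not counted. Promoters of genes with a member were counted stage by stage, without following single promoters. Of 749 such genes with a promoter in the RefSeq table, 79.7% had an H3K27ac peak over it in both MEF libraries, 53.0% in all 3 day 3 libraries, 35.6% in all 3 day 6 libraries, 64.0% in both day 9 libraries and 56.5% in both ESC libraries. Over all 17273 protein-coding genes with a promoter in the table the shares were 54.0%, 35.3%, 27.2%, 51.9% and 49.5%. The shares of both gene sets were lowest on day 6, where the peak lists were shortest.

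Members lay within a gene or 10 kb of it for 1015 of 21627 protein-coding genes, 4.69%. Of these genes 783 had 1 member, 151 had 2, 54 had 3, 12 had 4 and 15 had 5 or more. Fbn1, which encodes fibrillin-1, the backbone of extracellular microfibrils, had the most with 8, and none of its regions was held or all-stage, while 13 were early-lost. Antxr1, a receptor that links cells to collagen, had 7 members, as did Camk2d and Dnm3, among others. Ddah1, which breaks down methylated arginines that inhibit nitric oxide synthesis, and Tcf7l2, a transcription factor of the WNT pathway, had 6 each. The 8 genes with 5 were Rasa3, Farp1, Apbb2, Adam12, Stard13, Cacna1c, Nav2 and Adamtsl1. They include the GTPase regulators Rasa3, Farp1 and Stard13, the metalloprotease Adam12 and the L-type calcium channel subunit Cacna1c. All 15 are long genes, from 110.4 kb for Rasa3 to 915 kb for Adamtsl1, against a median of 17.3 kb over all protein-coding genes, so a longer gene had more room for members.

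**Figure D2:**
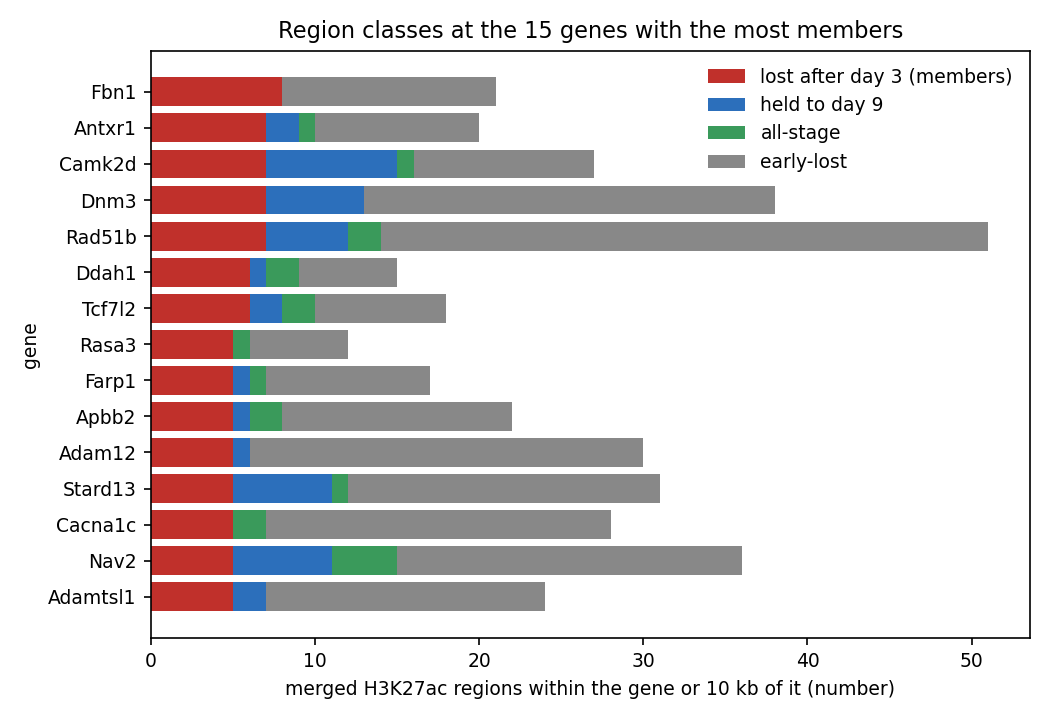
Number of regions of each class (horizontal axis, stacked) within 10 kb of the 15 protein-coding genes with the most members (vertical axis). Fbn1 had 8 members and 13 early-lost regions, while Camk2d had 8 held regions beside its 7 members.

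The gene lists were chosen with earlier results of these data known, and their genes differ in length. Their shares stand beside 4.69% of all protein-coding genes and were not tested. Among 20 collagen and matrix genes (median length 33.9 kb), 5 had a member (25.0%): Fbn1 with 8, Col6a3 and Tnc with 2, and Col1a1 and Col1a2 with 1. Of the same 20 genes, 5 had a held region and 16 an early-lost region. Over all 21627 protein-coding genes, 947 had a held region and 7336 an early-lost region. Among 12 genes of the TGF-beta pathway (74.3 kb), 5 had a member (41.7%): the co-receptor Tgfbr3 with 3, the signal transducer Smad3 with 2, and the ligand Tgfb2, the latent-ligand binding protein family member Ltbp2 and the SMAD repressor Skil with 1. Among 15 mesenchymal transcription factors (70.0 kb), 5 had a member (33.3%): the bone regulator Runx2 with 3, Runx1 with 2, and Prrx1, Zeb1 and Tbx15 with 1, while 13 of the 15 had an early-lost region. The contractile gene Cald1, which encodes the actin-binding caldesmon, had 3 and was the only gene of its 11 with any. The Hippo pathway effectors Tead1 and Yap1 had 1 each, 2 of 10 in their list.

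No member lay at any of 10 genes of AP-1 factors, although 9 of these genes had an all-stage region. Over all 21627 protein-coding genes, 11315 had an all-stage region. AP-1 genes are short, with a median of 7.83 kb. The lists of 16 pluripotency genes, 13 epithelial genes and 19 markers of other cell types had no member either. With 4.69% of all genes holding a member, lists of this size would hold few at that share, so nothing is read from these zeros.

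Members at matrix genes are described by their folds, which rank a peak within its own list and give no change in level between lists. The strongest of the 8 Fbn1 members (chr2:125354604-125357578, mm10) had H3K27ac folds of 20.5 and 18.5 in MEF and 5.34, 8.65 and 6.47 on day 3 (EA-3702, then DG-3458 replicates 1 and 2), a peak of 3.21 in only 1 of 3 day 6 libraries (EA-3702), and none later. It had KLF4 in 1 library on day 3 (4.14) and in 1 on day 6 (2.41). Of the 8 Fbn1 members, 3 had KLF4 on day 3, each in 1 library, and 5 had none in either. The MEF folds over the 8 ran from 3.91 to 20.5 in replicate 1 and from 3.30 to 18.5 in replicate 2, so the members of this gene included weak and strong elements.

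The member over the start of Col1a2, which encodes the second chain of type I collagen (chr6:4502228-4508732), had folds of 37.4 and 30.0 in MEF and 8.12, 7.49 and 7.12 on day 3, and no H3K27ac peak in any of the 3 day 6 libraries. It had KLF4 peaks of 4.65 and 3.33 on day 3 and 3.16 and 3.70 on day 6, and of 2.71 in 1 day 9 library. KLF4 was thus called there on day 6 in both libraries although H3K27ac was not in any. A second Col1a2 member, 14474 bp from the gene (chr6:4486601-4491144), had 31.2 and 31.5 in MEF, 8.30, 7.65 and 10.4 on day 3, and KLF4 only on day 3 (5.03 and 3.46).

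The Col1a1 member (chr11:94932206-94940295), over the start of the gene for the other type I collagen chain, had folds of 28.3 and 26.0 in MEF, 3.95, 2.68 and 5.85 on day 3 and none on day 6. KLF4 there was 8.61 and 7.19 on day 3, 7.64 and 6.10 on day 6, 6.28 and 5.57 on day 9, 6.20 and 3.71 in ESC and 2.73 and 3.49 in ESC with 2i. It thus had KLF4 in all 10 libraries, and it lies at the locus that holds the cassette in the reprogramming cells. V6.5 cells, whose genotype label names no cassette, had KLF4 peaks there as well. The Tnc member over the start of the gene for tenascin-C, a matrix glycoprotein of wounds (chr4:64043805-64049555), had 26.1 and 35.2 in MEF, 3.16, 5.65 and 7.47 on day 3, and KLF4 only on day 3 (4.93 and 2.67).

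Members at genes of transcription factors and of the TGF-beta pathway had KLF4 on day 3 in some cases, among them 2 of 3 at Tgfbr3 and those of Zeb1 and Tgfb2. Over all members, 62.4% had no KLF4 peak on day 3. The Runx2 member over its start (chr17:44813503-44815706) had 15.3 and 13.8 in MEF, 3.36, 3.48 and 4.89 on day 3, and no KLF4 peak in any of the day 3, day 6 and day 9 libraries, and its other 2 members had none there either. The strongest Tgfbr3 member (chr5:107122645-107126720) had 22.5 and 23.3 in MEF, 3.93, 4.66 and 4.23 on day 3, and no KLF4, while another (chr5:107119844-107122118) had KLF4 of 7.16 and 3.73 on day 3. The Prrx1 member (chr1:163279648-163287804), in the gene of a limb mesenchyme homeobox factor, had 16.4 and 14.3 in MEF and 2.87, 2.68 and 2.93 on day 3, near the weakest day 3 values among the members named here. The Smad3 member at chr9:63676888-63679768 had 11.3 and 13.8 in MEF, 2.57, 2.41 and 2.53 on day 3, and a peak of 3.04 in 1 of 3 day 6 libraries.

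The members with the best H3K27ac ranks over MEF and day 3 were mostly distal elements. The first lay within Spidr, a scaffold gene of DNA repair (chr16:15988082-15994882), with 32.8 and 32.1 in MEF, 11.2 to 18.8 on day 3 and a single day 6 peak of 2.83 in EA-3702. A separate acetylated region beside it kept H3K27ac peaks in all day 6, day 9 and ESC libraries. The second lay 7917 bp from Atp8b4, a phospholipid flippase gene (chr2:126307771-126313056), with 42.0 and 37.7 in MEF, 9.58, 10.9 and 10.4 on day 3, KLF4 of 12.3 and 4.25 on day 3, and no peak of either kind later. The other 10 lay in or nearest to Il17b, Hecw2, Ttc28, Col1a2, Mgat1, Ddah1, Ece1, Slit2, Pam and Ccn2, the last 114827 bp from the gene of a matricellular protein induced by TGF-beta. The Ccn2-nearest member (chr10:24475073-24480615) had 21.4 and 17.5 in MEF and 8.90, 10.3 and 11.0 on day 3, and KLF4 in 1 day 3 library (5.38). Of these 12, Spidr, Ddah1 and Ece1 had a day 6 peak, each in 1 of 3 libraries, of 2.83, 3.14 and 2.79.

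**Figure D3:**
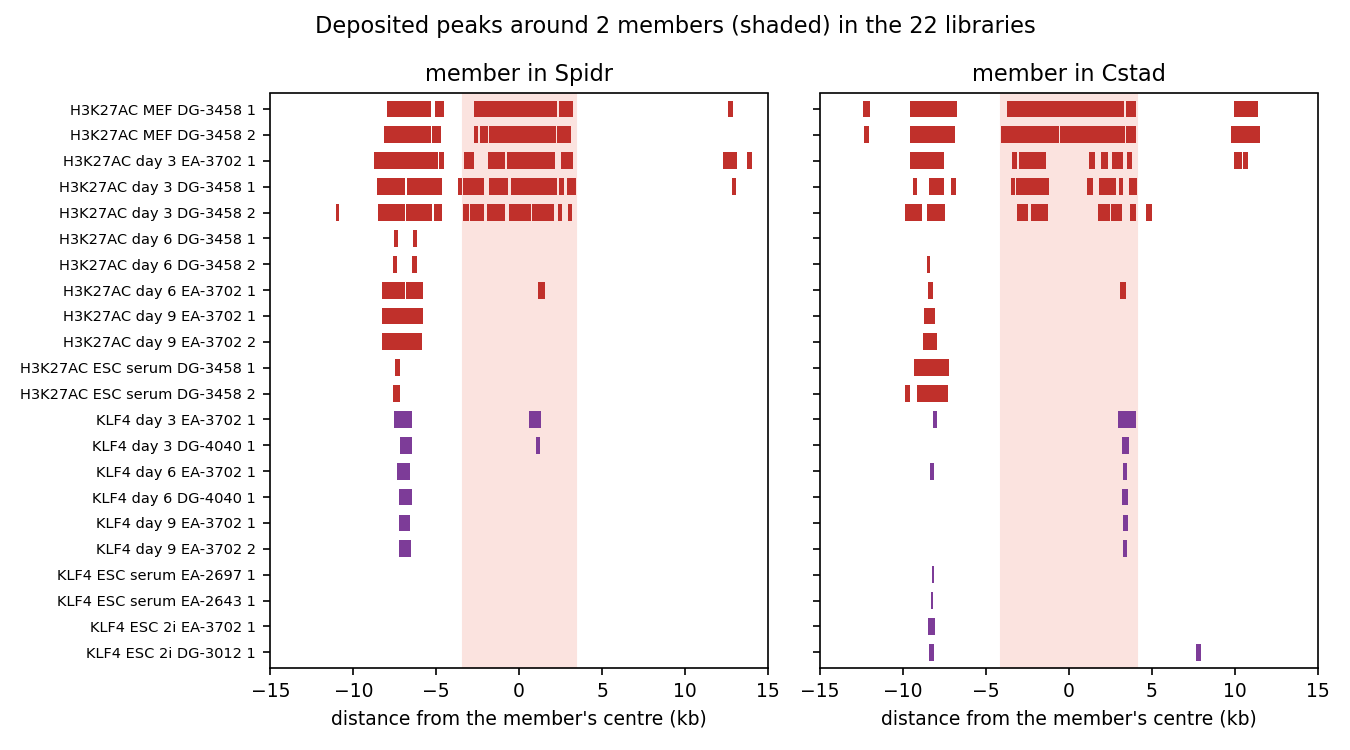
Peaks of the 22 libraries (rows) within 15 kb of the centre of 2 members (shaded), in Spidr and in Cstad, with distance from the member's centre in kb on the horizontal axis. H3K27ac peaks inside the shading end after day 3, apart from 1 day 6 library in Spidr and in Cstad, and KLF4 peaks run on to day 6 and day 9 in Cstad.

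Since most members lie away from promoters and no genome of their build was used here, sequence is shown for promoters that members cover, taken from RefSeq (GRCm38.p6, the assembly that mm10 coordinates follow). Members covered 143 listed promoters of 128 genes. An H3K27ac peak lay over the promoter itself in at least 1 MEF library for 138 of the 143, on day 3 for 116 and on day 6 for 2. A KLF4 peak lay over it in at least 1 library for 27 on day 3, 14 on day 6 and 4 on day 9, and in both day 3 libraries for 10 promoters of 9 genes, of which 5 genes had the KLF letters GGGNGTGG. The first 4 sequences are from these 5 genes and hold KLF letters in a promoter that a KLF4 peak overlaps, though the letters were not placed relative to the peak. They were chosen after their values were seen. The last 3 are of genes on the lists, and show promoters that lost H3K27ac with other letters or none. Each runs 5′ to 3′ on the gene's strand, with 250 bases before the start site and 50 after. Capitals mark the letters TGANTCA (AP-1), GGAATG (TEAD), TGTGGT (RUNX), GGGNGTGG (KLF), TTGCNNAA (C/EBP) and ATGCAAAT (octamer), searched on both strands, where neighbouring matches may overlap.
Il6, chr5:30012864-30013163, plus strand: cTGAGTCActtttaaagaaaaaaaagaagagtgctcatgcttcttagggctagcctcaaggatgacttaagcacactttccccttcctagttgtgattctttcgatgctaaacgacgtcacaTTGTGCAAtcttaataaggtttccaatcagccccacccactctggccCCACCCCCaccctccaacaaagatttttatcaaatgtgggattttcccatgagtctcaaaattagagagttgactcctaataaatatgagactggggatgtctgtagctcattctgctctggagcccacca
Gda, chr19:21472612-21472911, minus strand: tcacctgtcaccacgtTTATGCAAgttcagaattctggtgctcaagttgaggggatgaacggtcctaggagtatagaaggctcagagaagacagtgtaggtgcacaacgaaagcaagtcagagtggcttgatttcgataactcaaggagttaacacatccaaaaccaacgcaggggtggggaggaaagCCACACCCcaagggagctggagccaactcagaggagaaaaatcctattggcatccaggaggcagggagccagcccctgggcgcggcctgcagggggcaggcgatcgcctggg
Hspa12b, chr2:131127162-131127461, plus strand: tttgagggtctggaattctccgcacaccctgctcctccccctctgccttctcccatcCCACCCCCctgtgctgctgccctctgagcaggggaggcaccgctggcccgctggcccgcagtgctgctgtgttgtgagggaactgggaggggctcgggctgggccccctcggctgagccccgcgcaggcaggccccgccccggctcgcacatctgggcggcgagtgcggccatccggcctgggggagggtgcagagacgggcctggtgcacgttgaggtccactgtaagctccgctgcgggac
Pear1, chr3:87768904-87769203, minus strand: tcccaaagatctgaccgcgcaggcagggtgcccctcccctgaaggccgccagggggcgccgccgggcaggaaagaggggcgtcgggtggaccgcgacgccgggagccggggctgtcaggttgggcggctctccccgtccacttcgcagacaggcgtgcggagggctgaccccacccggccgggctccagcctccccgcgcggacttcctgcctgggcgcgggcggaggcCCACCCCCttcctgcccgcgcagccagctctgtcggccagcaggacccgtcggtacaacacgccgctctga
Runx2, chr17:44814578-44814877, minus strand: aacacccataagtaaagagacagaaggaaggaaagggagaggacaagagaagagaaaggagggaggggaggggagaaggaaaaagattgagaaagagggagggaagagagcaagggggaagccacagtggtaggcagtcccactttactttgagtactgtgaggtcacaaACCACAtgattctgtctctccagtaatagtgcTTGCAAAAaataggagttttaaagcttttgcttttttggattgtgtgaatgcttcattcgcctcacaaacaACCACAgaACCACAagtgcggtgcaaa
Tnc, chr4:64046887-64047186, minus strand: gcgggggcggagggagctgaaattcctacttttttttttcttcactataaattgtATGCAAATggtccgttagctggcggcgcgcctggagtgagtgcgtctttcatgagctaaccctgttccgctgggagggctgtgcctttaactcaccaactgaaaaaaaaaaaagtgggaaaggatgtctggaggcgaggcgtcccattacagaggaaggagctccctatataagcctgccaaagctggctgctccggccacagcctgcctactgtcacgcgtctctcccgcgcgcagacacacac
Col1a2, chr6:4505368-4505667, plus strand: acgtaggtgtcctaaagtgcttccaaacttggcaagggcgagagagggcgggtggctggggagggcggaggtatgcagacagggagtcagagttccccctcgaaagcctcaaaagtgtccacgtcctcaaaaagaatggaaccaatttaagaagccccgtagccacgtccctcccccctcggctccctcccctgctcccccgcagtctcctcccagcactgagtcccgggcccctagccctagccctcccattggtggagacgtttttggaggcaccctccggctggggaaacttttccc

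Il6 encodes the inflammatory cytokine interleukin-6, and its promoter held AP-1, C/EBP and KLF letters. Its member (chr5:30011708-30014138) had a KLF4 peak over the promoter in both day 3 libraries and in 1 day 6 library. Gda encodes guanine deaminase, Hspa12b an HSP70-like protein of endothelium, and Pear1 a platelet and endothelial receptor. Hspa12b and Pear1 had KLF4 over the promoter in both day 3 libraries and 1 day 6 library, and Gda only on day 3. The Runx2 promoter held 3 matches of RUNX letters and 1 of C/EBP letters and had no KLF4 peak, that of Tnc held an octamer and had KLF4 in both day 3 libraries, and that of Col1a2 held none of the letters and had KLF4 in 1 day 3 and 1 day 9 library.

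Across the 143 promoters, KLF letters were in 23 (16.1%) against 17.7% of all 32619 promoters in the table, and AP-1 letters in 11 (7.69%) against 7.85%. Of the promoters that held and early-lost regions cover, 15.1% and 14.8% had AP-1 letters. TEAD letters were in 26 (18.2%, all promoters 14.6%), RUNX letters in 29 (20.3%, 16.6%), C/EBP letters in 20 (14.0%, 10.9%) and octamers in 6 (4.20%, 1.75%). Among the 19 promoters in members with KLF4 in both day 3 libraries, 6 (31.6%) had KLF letters and 7 (36.8%) C/EBP letters. These are matches of letters in a window of 300 bases, and were not tested.

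Day 6 H3K27ac did not enter the choice of members. Of 1767 members, 43 (2.43%) and 17 (0.962%) had a day 6 peak in the libraries of DG-3458 and 85 (4.81%) in EA-3702, a mean of 2.74% ± 1.94 (SD, n = 3). Held regions had 39.3%, 30.0% and 59.7% (mean 43.0% ± 15.2), all merged regions 7.79%, 6.59% and 9.45%, and early-lost regions at most 0.0725%. The members lay below the held regions in each of the 3 libraries and the ranges did not overlap. The mean difference was −40.2 percentage points (exact sign-flip permutation test, two-sided, p = 0.250, the smallest that 3 libraries allow, adjusted p = 0.250), so the design could not reach the threshold.

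Counted over libraries, 1634 members (92.5%) had no day 6 peak, near the 89.0% of all merged regions. A peak in 1 library was found at 121 (6.85%, against 3.82% of all merged regions), in 2 libraries at 12 and in all 3 at 0, so 12 of 1767 had a peak in at least 2 libraries, against 7.20% of all merged regions. Held regions with a peak in 0, 1, 2 and 3 libraries numbered 428, 346, 234 and 284, so 33.1% of held regions had none on day 6 between peaks on day 3 and day 9, as did 5.77% of all-stage regions, and a missing day 6 peak does not date a loss. Where a member had a day 6 peak, it was weak for its list, with a median fold of 3.14, 3.28 and 2.65 and a median rank in the lower part of the list (76.1%, 81.8% and 83.8% from the top). With all 12 H3K27ac lists trimmed to their best 17493 peaks, the length of the shortest day 6 list, 87 of 619 members so chosen had a day 6 peak in at least 2 libraries. The members' day 6 shares were then 14.7%, 15.0% and 22.3%, and the mean difference from held regions was −69.0 points.

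The 12 members with day 6 peaks in 2 libraries lay in or nearest to Mmadhc, Fam185a, Klf14, Fam207a, Vps53, Hoxb3, Sptlc2, Anxa13, Myc, Xxylt1, Tiam2 and Ip6k3, and they are named as all such members. The member in Hoxb3, a homeobox gene of axial patterning (chr11:96323959-96329061), had 7.17 and 6.08 in MEF, 4.49, 6.65 and 3.90 on day 3 and 2.79 and 3.59 on day 6. The member in Anxa13, an annexin gene (chr15:58342310-58348612), had 4.40 and 4.21 in MEF, 9.88, 14.3 and 13.6 on day 3 and 2.65 and 3.02 on day 6. The member in Tiam2, a RAC exchange factor gene (chr17:3334898-3339419), had 27.9 and 35.1 in MEF, 7.02, 7.65 and 8.44 on day 3 and 3.50 and 3.02 on day 6. These day 6 folds were low in all 12, from 2.08 to 3.84.

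KLF4, the other measure that did not choose the members, was called at many of them on day 3 and at few afterwards. On day 3, 617 members (34.9%) had a KLF4 peak in the EA-3702 library and 319 (18.1%) in the DG-4040 library, a mean of 26.5% ± 11.9 (SD, n = 2). On day 6 it was 88 (4.98%) and 86 (4.87%), a mean of 4.92% ± 0.0800, and on day 9, 32 (1.81%) and 33 (1.87%). ESC had 19 (1.08%) and 40 (2.26%), and ESC with 2i had 36 (2.04%) and 48 (2.72%). Both day 3 libraries stood above all 8 others, although they differed from each other by more than the lower one differed from day 6.

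Over the 6 libraries of days 3, 6 and 9, the members' KLF4 share changed by −4.11 percentage points per day (exact permutation test over 90 labelings, two-sided, p = 0.0222, the smallest possible, adjusted p = 0.0389 by Benjamini-Hochberg over 7 tests). Over all 5 stages the between-stage F was 8.02 (exact permutation test, p = 0.00952, adjusted p = 0.0222). F was 236 without the EA-3702 library of day 3 and 991 without the DG-4040 one. With labels permuted within batches, the exact permutation p was 0.0417 for the slope and 0.0167 for F, and adjusted over the 7 tests these were 0.0730 and 0.0390, so the slope then missed the threshold. That 0.0417 was the smallest p that permutation within batches allows for the slope, which itself stayed at −4.11. The slope was −2.10 with the top 50% of each list, −2.53 with q of at most 0.01 and −2.70 with KLF4 lists of equal length (exact permutation p = 0.0222 in each). Leaving out the day 3 library of EA-3702 brought the slope to −2.46, and without any 1 of the 4 libraries of days 6 and 9 the slope of −4.55 to −4.11 had an exact permutation p of 0.0667 to 0.100. Without 1 day 6 library the slope stayed at −4.11, and its exact permutation p of 0.0667 was the smallest possible, so it could not pass. Without any 1 of the 8 libraries of day 6, day 9, ESC and ESC with 2i, the F of 6.14 to 6.37 had an exact permutation p of 0.0878 to 0.119. Within batch EA-3702 the share was 34.9% on day 3, 4.98% on day 6, and 1.81% and 1.87% on day 9, and within DG-4040 it was 18.1% on day 3 and 4.87% on day 6. The day 3 lists were longer (34404 and 29493 peaks) than those of day 6 (22525 and 23954) and day 9 (24004 and 26003). When every KLF4 list was trimmed to its best 21129 peaks, members had 21.7% and 13.6% on day 3, 4.19% and 3.90% on day 6, and 1.47% and 1.41% on day 9. With the 12 H3K27ac lists trimmed to equal length instead, the 619 members so chosen had KLF4 in 64.1% and 40.5% on day 3, 22.5% and 17.8% on day 6, 11.0% and 12.8% on day 9, and 12.4% and 19.2% in ESC, and the slope was −6.74 points per day.

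**Figure D4:**
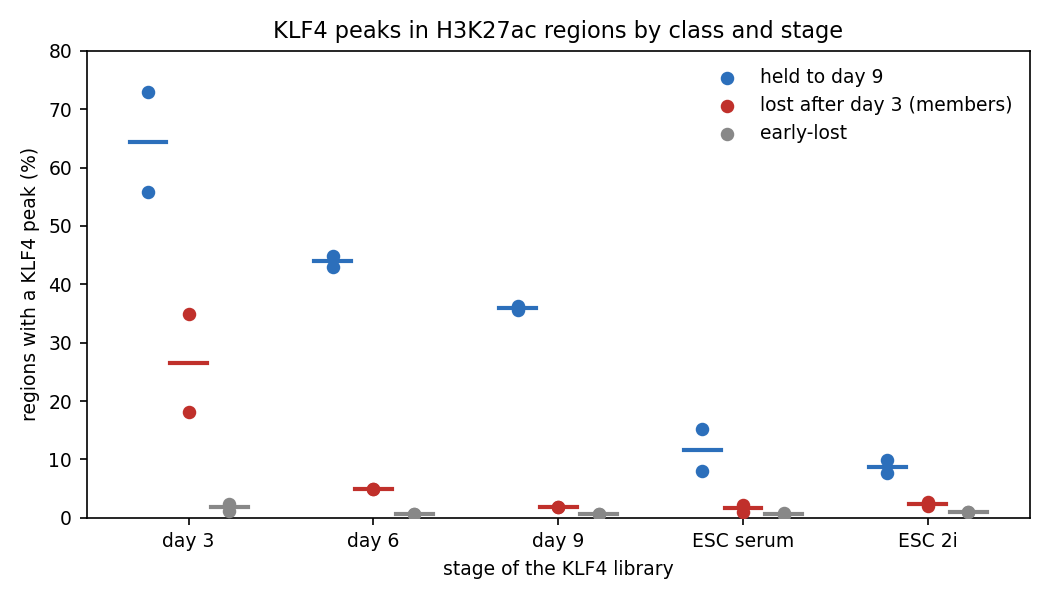
Percent of held regions, members and early-lost regions with a KLF4 peak (vertical axis) in each of 10 KLF4 libraries (points) by stage (horizontal axis), with short lines at the stage means. Members fell from a mean of 26.5% on day 3 to 4.92% on day 6, below the held regions and above the early-lost regions in all 10 libraries.

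Held regions, acetylated on day 9 but not in ESC, had more KLF4 at every stage: 72.9% and 55.8% on day 3, 43.0% and 44.9% on day 6, 35.6% and 36.3% on day 9, 8.05% and 15.2% in ESC and 7.74% and 9.83% in ESC with 2i. The members lay below them in 10 of 10 libraries, with a mean difference of −25.5 points (SD 15.1, range −40.0 to −5.70, exact sign-flip permutation test, two-sided, p = 0.00195, the smallest possible, adjusted p = 0.00684). Early-lost regions had 2.37% and 1.21% on day 3 and under the members at every later stage. The members lay above them in 10 of 10 libraries, by 6.51 points (SD 10.4, range 0.608 to 32.5, exact sign-flip permutation test, p = 0.00195, adjusted p = 0.00684). This difference was 3.61 without the day 3 library of EA-3702, 3.13 with the top 50% of each KLF4 list and 17.5 with the 12 trimmed H3K27ac lists.

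The gap between members and held regions was of like size on days 3 and 6, and its slope over days 3 to 9 was 0.627 points per day (exact permutation test, p = 0.111, adjusted p = 0.137), which missed the threshold. A gap in points does not compare relative losses, since the members' share was already near 0 by day 9. Member means were 26.5%, 4.92% and 1.84% on days 3, 6 and 9, and held means were 64.4%, 43.9% and 36.0%. Of 29 alternative settings for the slope of the gap, those that left out an ESC or ESC with 2i KLF4 library could not change it. It was above 0 with an exact permutation p of 0.0222 to 0.0444, before adjustment, in 7 of the 29, at 0.526 to 2.68. Among these, it was 0.998 and 0.980 when the members were chosen without the EA-3702 or the DG-3458 replicate 2 library of day 3 H3K27ac. This slope turned to −3.89 (exact permutation p = 0.0667) when all 12 H3K27ac lists were trimmed to equal length, keeping the best peaks, before the members were chosen. Of regions with KLF4 in both libraries on day 3, 42 of 272 members (15.4%), 414 of 693 held regions (59.7%) and 65 of 212 early-lost regions (30.7%) had it in both libraries on day 6. By this count the members were below both other classes, which was not tested.

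The KLF4 shares were also taken by region width. Among regions under 1000 bp, a mean of 20.8% of 212 members, 35.8% of 53 held and 1.53% of 21445 early-lost regions had KLF4 on day 3. From 1000 to 2000 bp the means were 24.3% of 577, 50.8% of 325 and 2.11% of 7159. From 2000 to 4000 bp they were 27.5%, 68.3% and 2.64%, and from 4000 bp they were 33.2% of 268, 76.5% of 281 and 5.12% of 283. Within each width class the members lay between the other 2 classes on day 3 and on day 6. On day 3 the members' share was higher in each wider class, while on day 6 the means were 4.25%, 3.90%, 5.00% and 7.46% from the narrowest class to the widest.

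**Figure D5:**
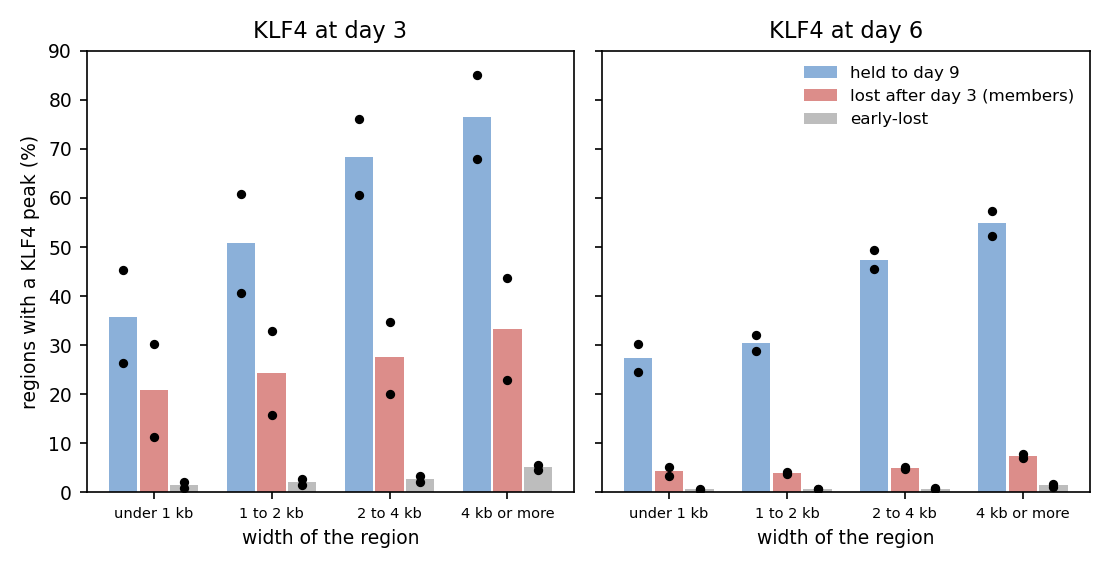
Mean percent of members, held and early-lost regions with a KLF4 peak (vertical axis; dots are the 2 libraries) by region width (horizontal axis), on day 3 and day 6. In the widest class the day 3 means were 33.2% for members, 76.5% for held and 5.12% for early-lost regions.

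With a call in both libraries of a stage, 272 members (15.4%) had KLF4 on day 3, against 8.43% of all merged regions and 53.6% of held regions. On day 6 it was 45 (2.55%, all merged regions 7.41%), on day 9 17 (0.962%, 9.18%), in ESC 12 (0.679%, 7.26%) and in ESC with 2i 15 (0.849%, 7.02%). By overlaps of 1 bp or more the members were thus above all merged regions on day 3 and below them from day 6 on. The day 3 direction turned when base pairs were counted: KLF4 peaks covered 5.20% and 1.72% of the members' base pairs on day 3 against 6.70% and 3.21% of those of all merged regions, whose median width was 542 bp. Of the 272, 174 (64.0%) had no KLF4 peak in either day 6 library, 238 (87.5%) none on day 9, and 8 had one in both ESC libraries. No KLF4 peak in any of the 10 libraries was found at 1069 members (60.5%), against 255 held regions (19.7%). The share over all merged regions was not counted, so 60.5% is not read as a trait of the members.

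KLF4 peaks in members were of ordinary strength. Their median rank on day 3 was 51.2% from the top in both lists, and their median fold of 4.33 (EA-3702) and 3.19 (DG-4040) equalled the median of the whole list. In held regions the ranks were 24.0% and 24.1% and the folds 6.24 and 3.99. Within members, KLF4 midpoints lay at a median of 380.5 and 412 bp from the centre. Of the midpoints of EA-3702, 49.3% fell inside a day 3 H3K27ac peak of the same batch, where such peaks covered 50.9% of the 617 members with those midpoints, and 26.4% and 17.5% inside those of DG-3458, which covered 43.2% and 36.0% of the same members. Relative to MEF peaks they fell inside in 74.7% and 78.6%, where coverage of these members was 83.2% and 83.6%. These shares were not tested against coverage.

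Members with more KLF4 on day 3 more often had a day 6 H3K27ac peak in at least 1 library: 36 of 272 (13.2%) with KLF4 in both day 3 libraries, 41 of 392 (10.5%) with it in 1 and 56 of 1103 (5.08%) with it in none. Held regions gave 77.1%, 56.7% and 53.7% in that order and all-stage regions 96.4%, 94.5% and 88.0%, so the same order was seen in regions that had H3K27ac on day 9. This order was not tested. The members' median widths were 2482, 2174 and 2097 bp. The 12 members kept in 2 day 6 libraries had KLF4 on day 3 in 10 (83.3%) and 4 (33.3%), against 542 (33.2%) and 281 (17.2%) of the 1634 with no day 6 peak. Over the 10 KLF4 libraries the kept members differed from the lost by 7.92 points (SD 16.2, above 0 in 5 libraries and below in 5, exact sign-flip permutation test, p = 0.117, adjusted p = 0.137), so the difference missed the threshold with 12 regions. All 12 had their peak in the EA-3702 day 6 library, without which no member was kept. With members chosen without day 9 replicate 1, day 9 replicate 2 or ESC replicate 1, it was 7.12 to 12.1 and passed an unadjusted 0.05 each time (exact permutation p = 0.0195 to 0.0410), and without the day 3 KLF4 library of EA-3702 it was 3.23. With members having at least 1 day 6 peak as kept (133), a setting chosen after seeing the data, the difference was 5.02 points (exact permutation p = 0.0625). With all 12 H3K27ac lists trimmed to equal length, which gave 87 kept members, it was 18.5 (exact permutation p = 0.00195).

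Of the 6 members with the best KLF4 ranks on day 3, 5 are described. In Cstad (chr2:30599441-30607603), H3K27ac was 34.4 and 33.4 in MEF and 4.74, 5.65 and 6.17 on day 3, with a single day 6 peak of 2.83, while KLF4 was 22.4 and 11.2 on day 3, 2.57 and 7.22 on day 6 and 3.40 and 2.14 on day 9. KLF4 was thus called on day 6 in both libraries, where H3K27ac had a peak in 1 of 3.

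The Edn1 member (chr13:42306114-42307992), at the gene of the vasoconstrictor peptide endothelin-1, had 14.3 and 9.12 in MEF, 5.34, 3.99 and 5.50 on day 3, and KLF4 of 13.7 and 8.51 on day 3 and 5.68 and 5.42 on day 6. The member 108589 bp from Plcl1, which encodes a phospholipase C-like protein (chr1:55862874-55867066), had H3K27ac of 11.1 and 10.1 in MEF and 11.7, 7.90 and 10.3 on day 3, with KLF4 of 15.9 and 9.75 on day 3 and 5.55 and 4.43 on day 6. The Scara3 member (chr14:65943056-65944148), at a scavenger receptor gene of the oxidative stress response, had KLF4 of 15.0 and 8.51 on day 3, 4.25 and 5.53 on day 6 and 3.92 in 1 day 9 library. The member 4394 bp from 4930564D02Rik (chr3:105057908-105062413), had KLF4 in all 10 libraries, with 9.68 and 7.64 on day 3 and 10.5 and 5.43 in ESC. These 5 members were ranked by KLF4 on day 3, so their day 3 values are a description.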

How the data were processed

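ChIP-seq peak lists of 12 H3K27ac and 10 KLF4 libraries, one list per library and none pooled, were used as the authors deposited them; 13 input samples were not used. Per the submitters' processing notes, the tools were cutadapt 1.8.1, Bowtie2 2.2.5, deepTools 2.3.6 and MACS2 2.1.1 with build mm10; their roles and settings are not given in the sources used here. Each deposited peak has a score, a fold enrichment (a linear ratio over local background), the −log10 of its p-value and the −log10 of its q-value, as the layout of the authors' files shows, with no header. The score was the whole part of 10 times the −log10 p in the deposited lists. The lists give no counts, so neither depth nor intervals could be given.

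Peaks were merged, classified and overlapped (at least 1 bp) in Python 3.11.15 with numpy 2.4.6 and pandas 2.3.3. Each tested value was a percent of regions per library, since regions are not replicates. Differences were tested with two-sided exact permutation tests over libraries (labels permuted, or signs flipped where classes were compared within a library), with Benjamini-Hochberg adjustment over 7 tests and a threshold of 0.05. The sign-flip tests on KLF4 took the 10 libraries of 5 stages together, so their p-values refer to no single stage. The code was tested on simulated data. Positions are mm10, and genes and promoters came from RefSeq tables of GRCm38.p6. Named regions were the 12 members with the best mean score rank over MEF and day 3 H3K27ac, the 6 best over day 3 KLF4 (1 of which is not reported here), and those with peaks in all 3 day 6 libraries, of which there were 0. Named genes were the 15 with the most members and, on each gene list, up to 6 with 2 or more members; other list genes with 1 member, promoters and day 6 members were named after their values were seen. The members and gene lists were chosen with earlier results of these data known. Alternatives changed the peaks taken, the overlap, the region definition and the libraries used.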

Additional observations from a re-analysis of the deposited data

How the results depend on the processing

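Leaving aside the day 6 H3K27ac test, whose p could not pass the threshold, 158 of 184 alternative values kept their direction and their side of the threshold by unadjusted p or, for the number of members, stayed within 1.5 times. The number of members was 619 with all 12 H3K27ac lists trimmed to their best 17493 peaks and 1009 with q of at most 0.01, and 1831 to 2570 with 1 library of the rule left out. The slope of the members minus held difference was 0.954 with an overlap of 50%, 2.68 with the top 50% of each tested list, 1.76 with q of at most 0.01, 0.526 for base pairs covered and 0.852 in windows of 1 kb (exact permutation p = 0.0222 to 0.0444), and reversed to −3.89 with the 12 trimmed lists; the cause was not tested. With that setting kept minus lost was 18.5, members minus early-lost 17.5 and the day 6 difference −69.0. With 1 library left out, the slope by day was −4.87 to −2.46, F was 6.14 to 991, members minus held −27.7 to −22.1, members minus early-lost 3.61 to 7.16, the slope of the members minus held difference 0.438 to 0.998, kept minus lost 3.23 to 12.1 and the day 6 difference −45.9 to −32.9. The highest F came without the DG-4040 library of day 3 KLF4, and it was 236 without the EA-3702 one. With labels permuted within batches, the exact permutation p was 0.0417, the smallest possible, for the slope by day and 0.0167 for F (adjusted 0.0730, which misses the threshold, and 0.0390). Kept minus lost gave no value with the top 50%, with q of at most 0.01 or without the EA-3702 library of day 6 H3K27ac, since no member was then kept. No paired analysis was possible because replicate number 1 is the only number the KLF4 groups have in common, so the numbers pair no libraries, and the other tests compare classes within a library. By batch, days 3 and 6 pair, and the permutation within batches used this. Depth is unknown and day 6 lists were the shortest, so a missing peak limits what day 6 can show.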
